A study of Mus musculus with 32 samples.

Results

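The 16 mandible arrays of an embryonic mouse jaw series of 32 arrays were used to ask where the loss of Alk5 had unequal effects at the distal and the proximal end of the same jaw. They were chosen by their labels, and the 16 maxilla arrays served only to choose the probe set that stands for each gene. Each Affymetrix array, a mouse design for the whole genome, held total RNA of 1 end of the mandible from embryos of day 13.5, and its deposited values are log2 expression levels. There were 4 groups of 4, each with replicates labelled 1 to 4: mutant distal, control distal, mutant proximal and control proximal mandible. The embryos were on a strain background labelled C57B6 and came from matings of Wnt1cre;Alk5fl/+ with Alk5fl/fl mice. The mutants are labelled Alk5_Knockout in the group names used here and were recognised by cleft palate and a calvarial defect. The controls were littermates whose alleles are not given in the labels, so whether they carry the Cre transgene is not known here. In this design Alk5 is lost only where the Wnt1 promoter has driven Cre, mainly neural crest derivatives, and other cells of the jaw keep it. The labels do not say whether arrays of different number came from different embryos, so part of the spread between arrays may be technical.

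Alk5, encoded by Tgfbr1, is the type I receptor that carries TGF-beta signals into the cell by phosphorylating the transcription factors Smad2 and Smad3. Cranial neural crest cells form the mesenchyme of the mandible, which gives rise to its bone, cartilage, tendon and dental pulp, and they surround muscle cells of mesodermal origin, oral epithelium, vessels, nerves and macrophages. Along the jaw the distal end lies towards the midline and the incisors and the proximal end towards the joint, and the ends are set apart by patterning genes such as Hand2 and the Msx genes distally and Barx1 proximally.

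The labels of jaw and end were checked against such genes. Hand2 read 10.71 to 13.66 in mandible and 5.76 to 10.17 in maxilla, without overlap. Within the mandible it read 13.28 to 13.66 at the distal end and 10.71 to 12.04 at the proximal end. Msx2 was also higher on all distal arrays (10.29 to 11.91 against 8.58 to 9.68), as was Msx1 (13.04 to 13.36 against 11.29 to 12.61), and Barx1 was lower on all of them (9.20 to 11.52 against 12.36 to 12.99). Dlx5, a distal patterning gene of early jaw development, was lower on all distal arrays too (10.92 to 12.13 against 12.29 to 12.62), the reverse of the order its list name would give, and it overlapped between mandible and maxilla. Dlx6, Hand1, Pax9, Gsc and Emx2 overlapped between the ends. Tgfbr1 itself did not check the genotype labels, because whether its probe set reads the deleted part of the gene is not known here. It averaged 12.96 ± 0.03 (SD, n = 4) in mutant and 12.68 ± 0.07 in control distal mandible, and 12.88 ± 0.07 in mutant and 12.71 ± 0.08 in control proximal mandible, with a difference of differences of 0.10 ± 0.08 (adjusted p = 0.954). Arrays of a group correlated at 0.968 to 0.997 over the genes tested, and 0 pairs were identical over all probe sets. The 4 arrays numbered 1 stood apart in a spike-in control (13.68 to 13.97 against 12.53 to 13.23 on the other 12). Control distal array 3 stood apart in the 3' minus 5' difference of Gapdh (2.23 against -0.18 to 0.12 on the other 15), a sign of RNA quality. Of the 8 sets of genotype and number, 2 had high Xist and a low Y-linked gene at both ends, as in females: control number 2 and mutant number 1. The other sets did not read so at either end, and whether they were male was not checked separately. Values within number 1 and within numbers 2 to 4 are therefore given beside the genes described in full.

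For each of 13302 genes, the mutant minus control difference at the proximal end was subtracted from that at the distal end, and this difference of differences was tested with limma. A value below 0 means that the mutant was lower relative to control at the distal end than at the proximal end, and a log2 difference of 1 is a factor of 2. At an adjusted p under 0.05, 49 genes passed (0.368% of the genes tested), of which 8 were above 0 (0.0601%) and 41 below 0 (0.308%). At an unadjusted p under 0.05 there were 918. The median over all genes was -0.04, with 8001 below 0 and 5301 above. In the same fit, mutant and control differed in 567 genes at the distal end (4.26%), 163 higher (1.23%) and 404 lower (3.04%) in the mutant, and in 456 at the proximal end (3.43%), 217 higher (1.63%) and 239 lower (1.8%). The genotype effects at the ends share no arrays, but each difference of differences is made from both.

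The 41 genes below 0 fell into 2 kinds by which end passed its own test. In 18 the mutant was lower at the distal end, and in 25 it was higher at the proximal end, with 2 genes, Rspo1 and E330013P04Rik, counted in both. Of the 18, Pantr1, Smoc2 and Syn3 were lower at the proximal end as well, by less. Of the 8 genes above 0, 4 were higher in the mutant at the distal end and 5 lower at the proximal end, with Cnr1 and Lrrn3 in both and Dync1i1 past the test at neither end. The 2 ends had opposite signs in 34 of the 49 genes (69.4%), against 33.2% of all genes, but a test of the difference selects for opposite signs. Each of the 49 had the same sign in all 4 numbers, which passing a test on these same arrays nearly requires. Of the 49, Ms4a6d, Lhfpl3, Slc15a3 and Ryr2 passed the filter on low signal only through the 1 group in which they were high. Arg1 and Elmod1 were under the filter level on all distal arrays and on 3 and 2 control proximal arrays. Without mutant proximal mandible they too would have missed the filter. The size of the differences is uncertain for all these genes. In 37 the difference of differences was larger than 1 in size. Leaving out single arrays gave 18 to 47 genes, with the lowest count without mutant proximal array 3, and leaving out all arrays of a number gave 29, 9, 5 and 17 without number 1, 2, 3 and 4. Without number 1, 19 of the 49 passed again and all 49 kept their sign. Without control distal array 3, 38 of the 49 passed. The plot of both ends shows these genes against all others.

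**Figure D1:**
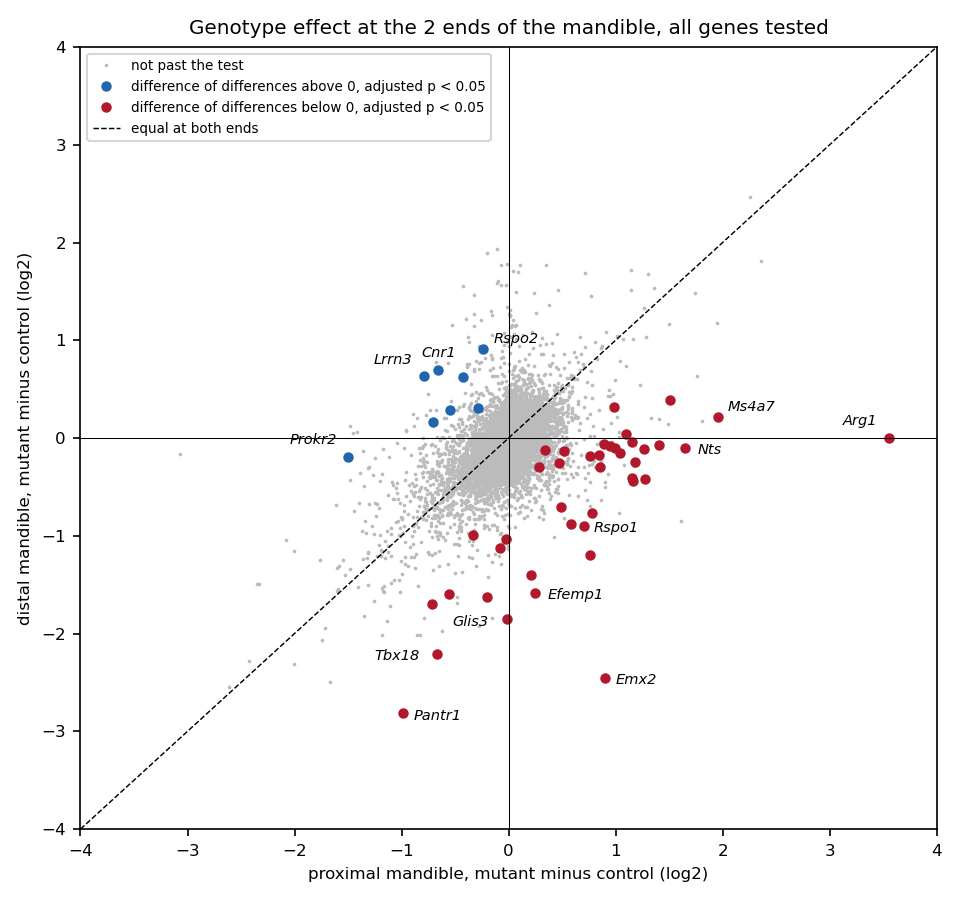
Genotype effect (mutant minus control, log2) at the distal end (vertical axis) against the proximal end (horizontal axis) for 13302 genes, 1 point per gene. The 8 blue points lie above the dashed line of equal effects and the 41 red points below it. Arg1 lies far right at a distal effect near 0, and Emx2 and Pantr1 lie lowest among the red and blue points.

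Transcription factor genes were among the genes lower in the mutant at the distal end. The largest difference of differences among them was in Emx2, a homeobox gene known for its part in forebrain, urogenital and shoulder girdle development. On the arrays numbered 1 to 4, Emx2 read 7.99, 8.50, 8.13 and 8.04 in mutant distal mandible, against 10.75, 10.42, 10.65 and 10.63 in control distal mandible. It read 11.07, 10.47, 10.99 and 10.37 in mutant proximal mandible, against 9.0, 10.73, 9.35 and 10.22 in control proximal mandible. All 4 mutant distal arrays lay below every other array, and the proximal groups overlapped. Mutant minus control was -2.45 (adjusted p = 0.000347) at the distal end and 0.90 (adjusted p = 0.116) at the proximal end, which gave a difference of differences of -3.35 ± 0.41 (SE; 95% interval -4.23 to -2.47; adjusted p = 0.00246). It was -4.84 within number 1 and -2.86 within numbers 2 to 4 (adjusted p = 0.0212). Distal minus proximal was -2.56 in mutants and 0.79 in controls. Its levels in control proximal mandible had an SD of 0.79, against 0.14 to 0.36 in the other groups.

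Emx2os and E330013P04Rik, transcripts of the same chromosome, had a pattern like that of Emx2. Emx2os, the opposite-strand transcript that adjoins Emx2 in the annotation, had a difference of differences of -1.46 ± 0.23 (adjusted p = 0.0132) with -0.88 at the distal end (adjusted p = 0.00707) and 0.58 at the proximal end (adjusted p = 0.0673). Within numbers 2 to 4 Emx2os had -1.31 and did not pass (adjusted p = 0.104). Whether its probe set reads 1 strand only was not checked here. E330013P04Rik, with 13 annotated genes between it and Emx2, was lower in the mutant at the distal end (-1.20, adjusted p = 0.00264) and higher at the proximal end (0.76, adjusted p = 0.0409). E330013P04Rik lay at 6.48 to 7.13 in mutant distal mandible and 7.90 to 8.03 in control distal mandible, and at 7.80 to 8.46 in mutant proximal mandible and 6.87 to 7.74 in control proximal mandible. The genotypes did not overlap at either end, in opposite directions, and the difference of differences was -1.96 ± 0.27 (SE; 95% interval -2.54 to -1.38; adjusted p = 0.00485). Of the mutant distal arrays, 2 lay under the filter level for this transcript, which leaves the size of the difference uncertain.

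Tbx18, a T-box transcription factor gene known from heart, ureter and somite development, differed by genotype mainly at the distal end. Tbx18 read 9.03, 9.29, 9.09 and 8.26 in mutant distal mandible, against 11.18, 10.94, 11.04 and 11.34 in control distal mandible. At the proximal end it read 10.64, 10.23, 10.47 and 9.96 in mutants, against 11.19, 11.02, 11.03 and 10.74 in controls. Mutant arrays lay below control arrays at both ends, farther at the distal end. The genotype effect on Tbx18 was -2.21 (adjusted p = 3.5e-05) distally and -0.67 (adjusted p = 0.0798) proximally, and the difference of differences was -1.54 ± 0.28 (SE; 95% interval -2.13 to -0.95; adjusted p = 0.0244). By array set this value was -1.60 within number 1 and -1.52 within numbers 2 to 4 (adjusted p = 0.13). Pou3f3, a POU-domain transcription factor gene, and Pantr1, the long non-coding transcript next to it with 1 annotated gene between them, moved alike. Pantr1 read 8.66, 9.11, 9.08 and 8.72 in mutant distal mandible, against 11.37, 11.83, 11.99 and 11.64 in control distal mandible. Mutant proximal mandible had 10.58, 10.24, 10.74 and 10.06, against 10.75, 11.48, 11.34 and 11.99 in control proximal mandible. The 4 mutant distal arrays were the lowest of the 16, and the mutant proximal arrays lay below the control proximal ones. Pantr1 thus differed between mutant and control by -2.82 (adjusted p = 1.17e-05) at the distal end and by -0.98 (adjusted p = 0.0256) at the proximal end, with a difference of differences of -1.83 ± 0.32 (SE; 95% interval -2.51 to -1.15; adjusted p = 0.0194) and -1.60 within numbers 2 to 4 (adjusted p = 0.0612). Pou3f3 averaged 10.29 ± 0.16 in mutant and 11.92 ± 0.08 in control distal mandible, and 11.47 ± 0.30 in mutant and 11.67 ± 0.30 in control proximal mandible (SD, n = 4 each). Its difference of differences was -1.43 ± 0.21 (SE; 95% interval -1.88 to -0.97; adjusted p = 0.00954), carried by the distal end (-1.63, adjusted p = 4.55e-05).

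The promoter windows of Emx2 and Tbx18 are printed here because these transcription factor genes had the largest distal differences of the 49 genes that have a window. Each runs from 250 bases before to 50 after an annotated start in RefSeq on GRCm38.p6, at chr19:59458440-59458739 on the plus strand for Emx2 and chr9:87731211-87731510 on the minus strand for Tbx18, written 5′ to 3′ in the direction of the gene. The capitals mark a homeobox core (TAATTA) in Emx2 and a SMAD box (CAGAC, here read on the other strand) in Tbx18.
Emx2: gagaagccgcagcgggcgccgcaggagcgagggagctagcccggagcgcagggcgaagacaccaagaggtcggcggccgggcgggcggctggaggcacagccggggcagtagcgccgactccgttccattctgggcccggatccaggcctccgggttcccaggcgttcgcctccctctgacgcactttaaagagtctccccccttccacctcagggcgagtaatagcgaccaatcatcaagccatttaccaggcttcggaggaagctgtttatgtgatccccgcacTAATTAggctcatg
Tbx18: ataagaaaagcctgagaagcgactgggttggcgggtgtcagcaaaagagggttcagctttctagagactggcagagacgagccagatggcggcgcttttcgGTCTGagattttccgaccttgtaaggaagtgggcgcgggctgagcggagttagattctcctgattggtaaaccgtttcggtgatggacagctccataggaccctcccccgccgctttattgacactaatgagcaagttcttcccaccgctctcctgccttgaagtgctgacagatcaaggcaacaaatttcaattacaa
Of 32851 windows of this length in the table, 5.29% hold TAATTA and 49.6% hold CAGAC on either strand. Among the 42 windows of 30 of the 49 genes, 2 hold TAATTA and 20 hold CAGAC, and 0 hold the palindrome GTCTAGAC, which 0.213% of all windows hold. None of these motifs contains another. A match of letters is a description and shows no bound site.

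Some genes lower in the mutant at the distal end encode matrix or adhesion proteins. They were grouped by role after the test, and of a list of 34 measured matrix genes 0 passed the test of the difference. Efemp1, which encodes the matrix glycoprotein fibulin-3, read 9.08, 9.12, 9.06 and 8.95 in mutant distal mandible, against 11.26, 10.43, 10.76 and 10.11 in control distal mandible. Its proximal values were 12.30, 11.46, 11.62 and 11.66 in mutants, against 11.45, 11.70, 11.48 and 11.44 in controls. The distal groups did not overlap and the proximal groups did. Between the genotypes the difference was -1.59 (adjusted p = 0.000576) at the distal end and 0.25 (adjusted p = 0.629) at the proximal end, and the difference of differences was -1.83 ± 0.29 (SE; 95% interval -2.45 to -1.21; adjusted p = 0.0132). Split by number, it came to -3.03 within number 1 and -1.43 within numbers 2 to 4 (adjusted p = 0.0212). Pcdh10, a protocadherin of cell adhesion, was lower in the mutant at the distal end (-1.40, adjusted p = 0.00112), with 0.21 at the proximal end (adjusted p = 0.674) and a difference of differences of -1.61 ± 0.27 (adjusted p = 0.0181), and all 3 of its other probe sets past the low-signal filter had the same sign. Within numbers 2 to 4 the difference of differences of Pcdh10 was -1.40 and did not pass (adjusted p = 0.11). Smoc2, a secreted calcium-binding matrix protein gene, read 9.27 ± 0.31 in mutant and 10.87 ± 0.10 in control distal mandible, and 11.48 ± 0.15 in mutant and 12.04 ± 0.08 in control proximal mandible (SD, n = 4 each). It was lower in the mutant at both ends, by more at the distal end (difference of differences -1.04 ± 0.18 (SE; 95% interval -1.41 to -0.66; adjusted p = 0.0181)). Edil3, an integrin ligand of the matrix, and Hs3st1, a heparan sulfate sulfotransferase, were lower at the distal end (-1.03 and -0.99), with -0.02 and -0.34 at the proximal end, which did not pass.

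Glis3, a Krüppel-like zinc finger transcription factor gene known from pancreas and thyroid, was high in only 1 of the 4 groups. Glis3 read 7.85, 8.37, 7.79 and 7.73 in mutant distal mandible, against 10.24, 9.48, 9.76 and 9.67 in control distal mandible. Proximal values of Glis3 were 8.01, 7.67, 7.76 and 7.33 in mutants, against 8.11, 8.02, 7.11 and 7.60 in controls. The control distal arrays lay above all 12 others. Mutant minus control was -1.86 (adjusted p = 0.000381) at the distal end and -0.02 (adjusted p = 0.985) at the proximal end, and the difference of differences was -1.84 ± 0.32 (SE; 95% interval -2.51 to -1.16; adjusted p = 0.0188). The same value for Glis3 was -2.29 within number 1 and -1.69 within numbers 2 to 4 (adjusted p = 0.0786). The calcium release channel gene Ryr2 had the same shape at low signal: it read 6.02 to 6.31 in mutant distal mandible, against 6.99 to 7.69 in control distal mandible. Proximally it read 5.35 to 5.80 in mutants and 5.47 to 5.65 in controls, and all arrays outside the control distal group lay under the signal level used as a filter. Its difference of differences of -1.04 ± 0.20 (adjusted p = 0.0418) is thus set against low signal, and how large it is cannot be read from these arrays. Syn3, a synapsin gene, was lower at both ends (-1.70 distal, adjusted p = 1.17e-05, and -0.71 proximal, adjusted p = 0.00769). Its signal was under the filter level on 2 mutant distal arrays, so the size of its distal difference is uncertain. The values of these genes on each array are shown for 12 genes in the panels by group.

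**Figure D2:**
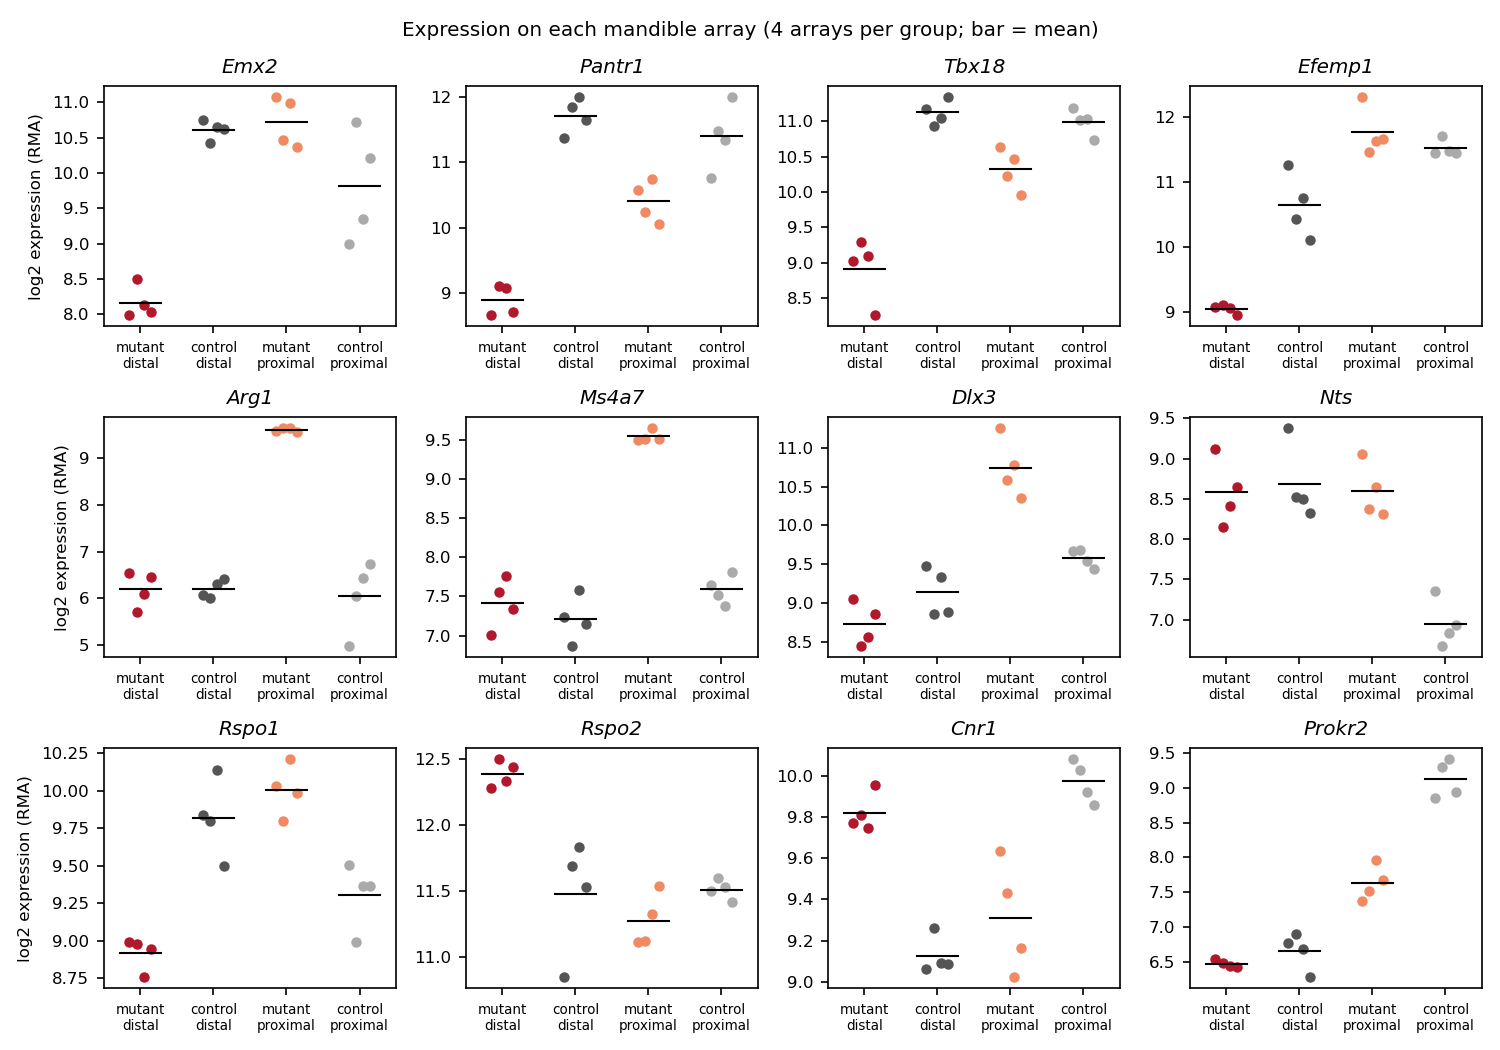
Log2 expression of 12 genes on each of the 16 mandible arrays, 4 per group, with the mean as a bar; each panel has its own vertical scale, which does not start at 0. Emx2, Pantr1, Tbx18 and Efemp1 (top) are lowest in mutant distal mandible, Arg1, Ms4a7 and Dlx3 (middle) are highest in mutant proximal mandible, and Rspo1 and Rspo2 (bottom) differ at the distal end in opposite directions.

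The largest difference of differences of all was in Arg1, the arginase that splits arginine into ornithine and urea and, in mice, a gene of one state of macrophage activation. On the arrays numbered 1 to 4, Arg1 read 6.54, 5.71, 6.09 and 6.46 in mutant distal mandible, against 6.07, 6.01, 6.30 and 6.41 in control distal mandible. It read 9.57, 9.63, 9.64 and 9.56 in mutant proximal mandible, against 4.97, 6.06, 6.44 and 6.73 in control proximal mandible. The 4 mutant proximal arrays stood far above all others, and the remaining 3 groups overlapped. Signal was under the filter level on all 4 mutant distal, all 4 control distal and 3 control proximal arrays. Those values have little meaning beyond being low, and the size of the difference is uncertain. The genotype effect on Arg1 was 0.00 (adjusted p = 0.997) distally and 3.55 (adjusted p = 1.44e-05) proximally, and the difference of differences was -3.55 ± 0.40 (SE; 95% interval -4.40 to -2.70; adjusted p = 0.00186). It was -4.13 within number 1 and -3.35 within numbers 2 to 4 (adjusted p = 0.00126). Of the 10 measured genes of a list of arginine metabolism, Arg1 alone passed the test, beside 0.368% of all genes. The list's median was -0.04. Arg2, Gatm and Nos1, the members with the next smallest p, had -1.10 (adjusted p = 0.456), 0.73 (adjusted p = 0.671) and 0.14 (adjusted p = 0.966).

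Macrophage genes formed the largest named group among the 49. Of 26 macrophage and leukocyte markers 24 were measured, and 6 passed, all below 0 (Ms4a7, C1qc, C1qa, Adgre1, C1qb and Apoe), beside 0.308% of all genes. The other 18 did not pass. All 24 lay below 0, with a median of -0.97, beside 8001 of 13302 and -0.04 for all genes. At the proximal end 13 were higher in the mutant and 0 lower, beside 1.63% and 1.8% of all genes, with a median effect of 0.79. At the distal end 0 were higher and 3 lower, beside 1.23% and 3.04% of all genes, with a median of -0.22. The 3 were Ptprc, F13a1 and Pf4, named after their values were seen. Csf1r and Ptprc missed the threshold narrowly, at -1.10 ± 0.22 (adjusted p = 0.0504) and -1.02 ± 0.21 (adjusted p = 0.0576). The summed level of the list on the log2 scale was 12.83 to 12.98 in mutant distal and 12.93 to 13.60 in control distal mandible, and 13.98 to 14.21 in mutant proximal and 13.04 to 13.50 in control proximal mandible. The mutant proximal arrays thus lay above all others and the distal groups overlapped. In bulk tissue more cells of a type and more RNA per cell cannot be told apart. The list's median was -1.39 within number 1, -0.83 without number 1 and -1.0 without control distal array 3. Without number 1, 2 of the 24 passed, and 3 passed with each genotype and number as a fixed block.

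Ms4a7, a membrane protein gene of macrophages, had the clearest separation. Ms4a7 read 7.01, 7.56, 7.76 and 7.34 in mutant distal mandible, against 7.24, 6.86, 7.59 and 7.15 in control distal mandible. At the proximal end it read 9.50, 9.51, 9.65 and 9.51 in mutants, against 7.65, 7.52, 7.38 and 7.82 in controls. The mutant proximal arrays lay above all others, and the distal groups overlapped. Ms4a7 thus differed between mutant and control by 0.21 (adjusted p = 0.486) at the distal end and by 1.95 (adjusted p = 1.44e-05) at the proximal end, and the difference of differences was -1.74 ± 0.22 (SE; 95% interval -2.22 to -1.26; adjusted p = 0.00295). By array set this value was -2.08 within number 1 and -1.63 within numbers 2 to 4 (adjusted p = 0.0309). Ms4a6b and Ms4a6d, related genes nearby with 8 and 2 annotated genes between neighbours of the 3, passed as well at -1.55 ± 0.29 (adjusted p = 0.0319) and -1.60 ± 0.24 (adjusted p = 0.00954). Ms4a6b was lower in the mutant at the distal end (-0.77, adjusted p = 0.0463) and did not pass at the proximal end (0.78, adjusted p = 0.0508), whereas Ms4a6d passed at the proximal end (1.16, adjusted p = 0.00174) with -0.44 at the distal end (adjusted p = 0.157). Signal of Ms4a6d was under the filter level on all arrays outside mutant proximal mandible, so that only its being higher there can be read.

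C1qa, C1qb and C1qc, which encode the 3 chains of the complement recognition protein C1q and lie side by side, behaved as 1 group. C1qc read 7.84, 7.92, 8.11 and 8.21 in mutant distal mandible, against 8.52, 8.02, 8.22 and 7.77 in control distal mandible. Mutant proximal mandible had 9.94, 9.79, 9.74 and 9.56, against 8.60, 8.20, 8.37 and 8.80 in control proximal mandible. The mutant proximal arrays lay above all others. Between the genotypes the difference was -0.11 (adjusted p = 0.728) at the distal end and 1.26 (adjusted p = 0.000544) at the proximal end, and the difference of differences was -1.37 ± 0.22 (SE; 95% interval -1.84 to -0.91; adjusted p = 0.0132). Split by number, it came to -2.02 within number 1 and -1.16 within numbers 2 to 4 (adjusted p = 0.0781). C1qb had -1.19 ± 0.22 (adjusted p = 0.0317) and C1qa -1.05 ± 0.19 (adjusted p = 0.0233), and within numbers 2 to 4 these were -1.01 and -0.90 (adjusted p = 0.14 for both). Adgre1, a gene of a macrophage surface receptor, was -1.20 ± 0.22 (adjusted p = 0.0315). The lipid carrier genes Apoe and Apoc1, which are neighbours, were -1.11 ± 0.21 (adjusted p = 0.0333) and -1.43 ± 0.18 (adjusted p = 0.00295), both higher in the mutant at the proximal end (1.51 and 1.18) and not past the test at the distal end (0.39 and -0.24). Cd300a, an inhibitory receptor gene of myeloid cells, and Slc15a3, a lysosomal peptide and histidine transporter gene, were -1.15 ± 0.15 (adjusted p = 0.00319) and -1.03 ± 0.18 (adjusted p = 0.0188). Slc15a3 too was above the filter level in mutant proximal mandible only. The part of macrophage content in these differences was not tested.

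The windows of C1qc and C1qb are shown as an example of neighbouring genes that moved together. They lie at chr4:136892865-136893164 on the minus strand and chr4:136886151-136886450 on the minus strand (GRCm38.p6, RefSeq, 5′ to 3′ in the direction of the gene), and the capitals mark a PU.1 core, GAGGAA, the purine-rich letters read by the myeloid factor PU.1, which stands on the other strand in C1qc.
C1qc: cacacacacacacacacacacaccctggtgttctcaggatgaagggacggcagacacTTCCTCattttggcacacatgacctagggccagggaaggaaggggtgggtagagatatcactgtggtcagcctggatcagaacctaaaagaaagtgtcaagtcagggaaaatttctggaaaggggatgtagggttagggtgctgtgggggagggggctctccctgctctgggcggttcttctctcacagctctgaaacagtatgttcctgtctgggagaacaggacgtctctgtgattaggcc
C1qb: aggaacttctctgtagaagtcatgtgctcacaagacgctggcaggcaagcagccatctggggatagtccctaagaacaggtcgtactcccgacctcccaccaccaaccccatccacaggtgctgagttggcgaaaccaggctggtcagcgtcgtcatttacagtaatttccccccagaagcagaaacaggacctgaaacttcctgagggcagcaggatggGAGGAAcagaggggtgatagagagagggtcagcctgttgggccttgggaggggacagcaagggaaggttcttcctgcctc
GAGGAA stood in 28.3% of all 32851 windows on either strand and in 17 of the 42 windows of the genes past the test. Emx2's window, printed above for its homeobox core, holds it as well.

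Further genes higher in the mutant at the proximal end stood outside the macrophage list. Dlx3, a homeobox gene of surface ectoderm, tooth and bone, read 9.05, 8.44, 8.56 and 8.87 in mutant distal mandible, against 9.48, 8.86, 9.33 and 8.89 in control distal mandible. Proximally it read 11.25, 10.59, 10.77 and 10.35 in mutants, against 9.67, 9.69, 9.54 and 9.44 in controls. The mutant proximal arrays were the highest of the 16 and the distal groups overlapped. Mutant minus control was -0.41 (adjusted p = 0.238) at the distal end and 1.16 (adjusted p = 0.00384) at the proximal end, and the difference of differences was -1.56 ± 0.27 (SE; 95% interval -2.13 to -1.0; adjusted p = 0.0181). The same value for Dlx3 was -2.01 within number 1 and -1.41 within numbers 2 to 4 (adjusted p = 0.0323). In a list of 22 measured oral epithelium genes, none passed the test, and 21 lay below 0, beside 8001 of 13302 for all genes. Their median was -0.54, with a median effect of -0.25 at the distal and 0.29 at the proximal end. Their summed level was 14.88 to 15.48 in mutant distal and 15.26 to 15.94 in control distal mandible, and 14.80 to 15.13 in mutant proximal and 14.50 to 15.04 in control proximal mandible, overlapping at both ends, and its part in the difference of Dlx3 was not tested. Of its members with the smallest p, the signal gene Shh had -1.35 ± 0.45 (adjusted p = 0.408), the adhesion genes Cdh1 and Epcam -0.58 and -0.50 (adjusted p = 0.48 and 0.576), and the keratin gene Krt5 -0.78 (adjusted p = 0.578).

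Nts, the precursor of the peptide neurotensin, was low in 1 group only. Nts read 9.12, 8.15, 8.41 and 8.65 in mutant distal mandible, against 9.38, 8.52, 8.50 and 8.33 in control distal mandible. Proximal values of Nts were 9.06, 8.37, 8.64 and 8.32 in mutants, against 7.36, 6.67, 6.83 and 6.93 in controls. The control proximal arrays lay below all others, the other 3 groups overlapped, and the number 1 array was the highest of its group in each. Of the control proximal arrays, 1 was under the filter level. The genotype effect on Nts was -0.10 (adjusted p = 0.853) distally and 1.65 (adjusted p = 0.00219) proximally, and the difference of differences was -1.75 ± 0.35 (SE; 95% interval -2.50 to -1.0; adjusted p = 0.0473). It was -1.97 within number 1 and -1.68 within numbers 2 to 4 (adjusted p = 0.008). Elmod1 and Lhfpl3 were highest in mutant proximal mandible at 7.84 to 8.19 and 6.88 to 7.60, against 6.26 to 7.16 and 5.74 to 6.11 in control proximal mandible, and their distal signal was under the filter level on all arrays. So was that of Lhfpl3 on all 4 control proximal arrays and that of Elmod1 on 2 of them, which leaves the sizes uncertain. Their differences of differences were -1.70 ± 0.32 (adjusted p = 0.0357) and -1.48 ± 0.22 (adjusted p = 0.00954). The further genes of this kind included Smoc1, a matrix protein gene related to Smoc2, at -1.02 ± 0.18 (adjusted p = 0.0233), Dach2, a nuclear cofactor gene, at -1.10 ± 0.22 (adjusted p = 0.0434), and Selenop, the selenium transport protein gene, at -0.95 ± 0.18 (adjusted p = 0.0373). Smoc1 was higher at the proximal end (0.84), with -0.18 at the distal end, whereas Smoc2 was lower at both. The intervals of all 49 are drawn in the plot of genes past the test.

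**Figure D3:**
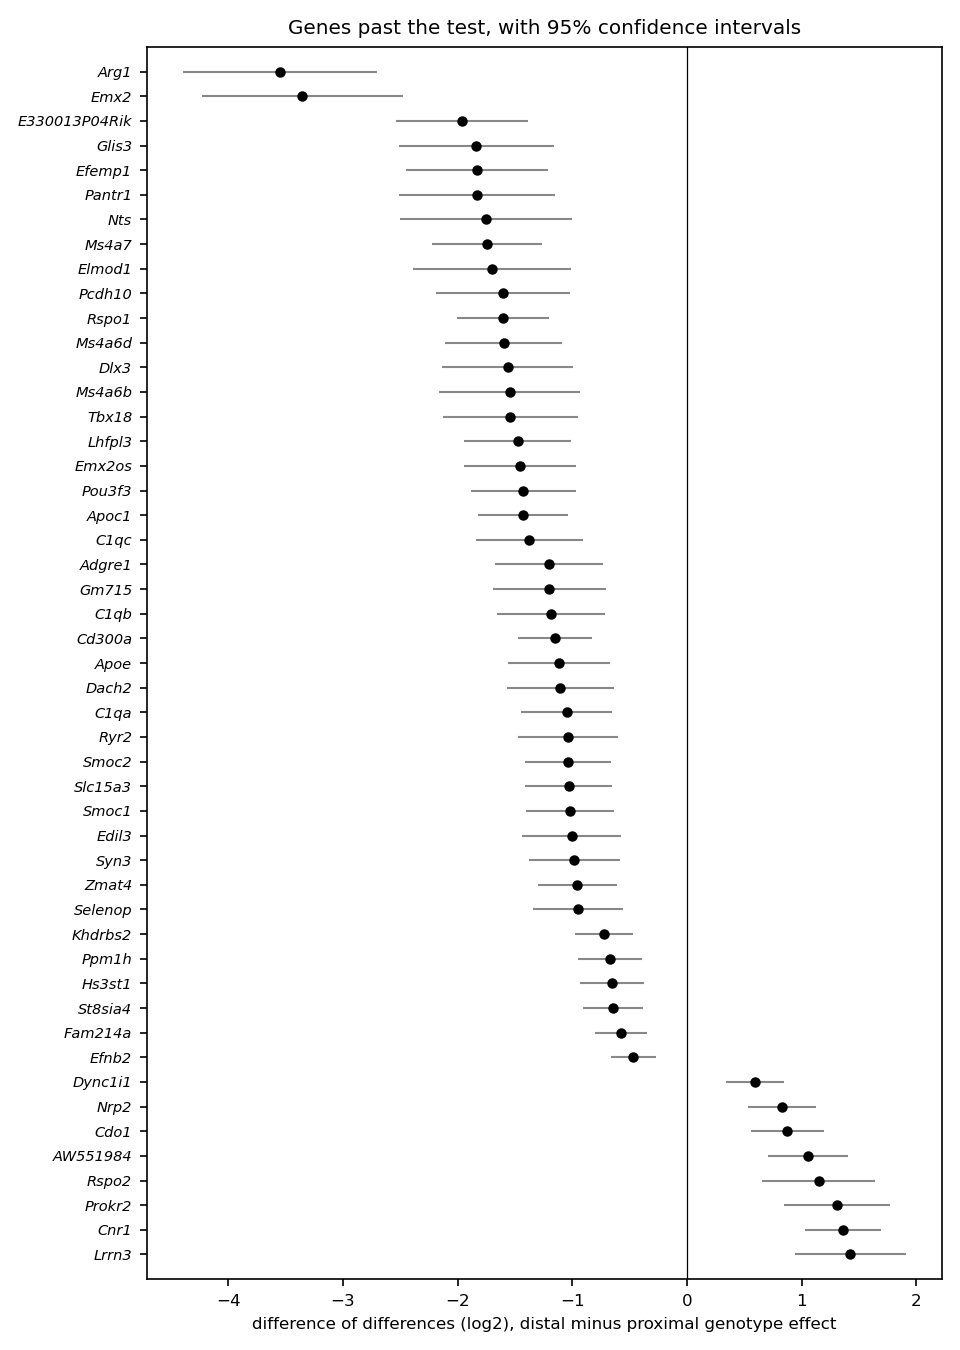
Difference of differences (distal minus proximal genotype effect, log2) of the 49 genes past the test, each point with its 95% confidence interval. The 41 genes below 0 run from -3.55 (Arg1) to -0.47 (Efnb2) and the 8 above 0 from 0.59 (Dync1i1) to 1.42 (Lrrn3).

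The 8 genes above 0 were of mixed kinds, and Lrrn3, Cnr1 and Prokr2 had the largest values. Lrrn3, a leucine-rich repeat membrane protein gene of neurons, read 10.79, 10.49, 10.32 and 10.80 in mutant distal mandible, against 9.95, 10.14, 9.76 and 10.03 in control distal mandible. Proximally it read 8.09, 8.23, 7.54 and 7.72 in mutants, against 8.63, 8.62, 9.03 and 8.47 in controls. Mutants lay above controls at the distal end and below them at the proximal end without overlap. Lrrn3 thus differed between mutant and control by 0.63 (adjusted p = 0.0388) at the distal end and by -0.79 (adjusted p = 0.014) at the proximal end, and the difference of differences was 1.42 ± 0.23 (SE; 95% interval 0.94 to 1.91; adjusted p = 0.0132). By array set this value was 1.37 within number 1 and 1.44 within numbers 2 to 4 (adjusted p = 0.0834).

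Cnr1, the cannabinoid receptor gene of brain and peripheral nerves, had the same form. Cnr1 read 9.77, 9.81, 9.75 and 9.96 in mutant distal mandible, against 9.06, 9.26, 9.09 and 9.09 in control distal mandible. At the proximal end it read 9.63, 9.43, 9.02 and 9.16 in mutants, against 10.08, 10.03, 9.92 and 9.86 in controls. The genotypes again did not overlap at either end. Between the genotypes the difference was 0.70 (adjusted p = 0.00247) at the distal end and -0.66 (adjusted p = 0.00439) at the proximal end, and the difference of differences was 1.36 ± 0.16 (SE; 95% interval 1.03 to 1.69; adjusted p = 0.00186). Split by number, it came to 1.16 within number 1 and 1.43 within numbers 2 to 4 (adjusted p = 0.0073). In mutants Cnr1 was higher at the distal than the proximal end (0.51), and in controls it was lower there (-0.85).

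Prokr2, the receptor gene for prokineticins, differed at the proximal end. Prokr2 read 6.53, 6.48, 6.43 and 6.42 in mutant distal mandible, against 6.77, 6.90, 6.69 and 6.27 in control distal mandible. Mutant proximal mandible had 7.37, 7.51, 7.96 and 7.67, against 8.85, 9.30, 9.42 and 8.95 in control proximal mandible. The distal groups overlapped at low signal, and the mutant proximal arrays lay below the control proximal ones and above the distal ones. Signal was under the filter level on all 4 mutant distal and 2 control distal arrays, so the size of the difference of differences is uncertain. Mutant minus control was -0.19 (adjusted p = 0.513) at the distal end and -1.50 (adjusted p = 0.000103) at the proximal end, and the difference of differences was 1.31 ± 0.22 (SE; 95% interval 0.85 to 1.77; adjusted p = 0.0173). The same value for Prokr2 was 1.25 within number 1 and 1.33 within numbers 2 to 4 (adjusted p = 0.0605). Nrp2, a co-receptor gene for semaphorins and VEGF, and Cdo1, the cysteine dioxygenase gene, were also lower in the mutant at the proximal end (-0.55, adjusted p = 0.00672, and -0.71, adjusted p = 0.00198), with differences of differences of 0.83 ± 0.14 (adjusted p = 0.018) and 0.87 ± 0.15 (adjusted p = 0.0181). AW551984 had 1.05 ± 0.16 (adjusted p = 0.0123) and was higher at the distal end (0.63, adjusted p = 0.0069). Dync1i1, a dynein chain gene, had 0.59 ± 0.12 (adjusted p = 0.0477), made of 0.31 and -0.29 at the ends. The next genes above 0 by p, which did not pass, were Eya1, a transcriptional cofactor gene (1.20 ± 0.25, adjusted p = 0.0597), and Asns, the asparagine synthetase gene (0.46 ± 0.10, adjusted p = 0.0614).

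In the Wnt pathway 2 R-spondins, secreted proteins that strengthen Wnt signals through Lgr receptors, passed the test with opposite signs. Rspo1 read 8.99, 8.98, 8.76 and 8.94 in mutant distal mandible, against 9.84, 9.80, 10.14 and 9.50 in control distal mandible. Proximal values of Rspo1 were 10.03, 9.80, 10.21 and 9.99 in mutants, against 9.50, 8.99, 9.37 and 9.37 in controls. Rspo1 was lower in the mutant at the distal end and higher at the proximal end, without overlap at either. The genotype effect on Rspo1 was -0.90 (adjusted p = 0.00153) distally and 0.70 (adjusted p = 0.00934) proximally, and the difference of differences was -1.60 ± 0.19 (SE; 95% interval -2.0 to -1.20; adjusted p = 0.00186). It was -1.37 within number 1 and -1.68 within numbers 2 to 4 (adjusted p = 0.0212).

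Rspo2 read 12.28, 12.50, 12.33 and 12.44 in mutant distal mandible, against 10.84, 11.69, 11.83 and 11.53 in control distal mandible. At the proximal end it read 11.11, 11.12, 11.32 and 11.53 in mutants, against 11.50, 11.60, 11.53 and 11.41 in controls. All mutant distal arrays were above all other arrays, the proximal groups overlapped, and control distal array 1 was the lowest of the 16. Rspo2 thus differed between mutant and control by 0.91 (adjusted p = 0.00592) at the distal end and by -0.24 (adjusted p = 0.53) at the proximal end, and the difference of differences of Rspo2 was 1.15 ± 0.23 (SE; 95% interval 0.66 to 1.64; adjusted p = 0.0477), with 1.82 within number 1 and 0.92 within numbers 2 to 4 (adjusted p = 0.0468). Of the 24 measured genes of a Wnt list, 1 passed above 0 (Rspo2), 1 below 0 (Rspo1) and 22 did not pass, with a median of -0.06. Of all genes 0.0601% passed above 0 and 0.308% below 0. Dkk1, the gene of a secreted Wnt inhibitor, had 1.60 ± 0.35 (adjusted p = 0.0735) and was lower in the mutant at the proximal end (-1.48, adjusted p = 0.00418). Dkk1 read 8.41 to 9.12 in mutant and 9.93 to 10.76 in control proximal mandible, without overlap, and 11.43 to 12.0 in mutant and 10.80 to 11.95 in control distal mandible. Rspo3, the other R-spondin measured in this list, had -0.80 ± 0.21 (adjusted p = 0.164) and was lower in the mutant at the distal end (-0.68, adjusted p = 0.0175), with 0.12 at the proximal end (adjusted p = 0.765). The feedback inhibitor gene Nkd2 had -0.88 ± 0.20 (adjusted p = 0.103).

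The jaw patterning lists held few of the 49. Of 19 measured proximal jaw patterning genes 3 passed below 0 (Emx2, Pou3f3 and Tbx18), beside 0.308% of all genes. None passed above 0 and 16 did not pass, with a median of 0.14. Foxc1 had -1.15 ± 0.27 (adjusted p = 0.101), the next smallest p. In control mandible, distal minus proximal was 0.79 for Emx2, 0.24 for Pou3f3 and 0.13 for Tbx18. These 3 thus did not average higher at the proximal end of controls, whatever the name of their list. Of 15 distal jaw patterning genes Dlx3 passed below 0, beside 0.308% of all genes, and 14 did not pass, with a median of 0.19. For Dlx3 distal minus proximal was -0.44 in controls, again the reverse of its list name. Its relatives Dlx6 and Dlx4 had 1.45 ± 0.32 (adjusted p = 0.0822) and -1.01 ± 0.30 (adjusted p = 0.298), on opposite sides of 0. Hand2, which marks the distal end, read 13.28 to 13.66 in mutant and 13.35 to 13.56 in control distal mandible, and 11.52 to 12.04 in mutant and 10.71 to 11.78 in control proximal mandible, overlapping at both ends. Of 31 axon and vessel guidance genes Nrp2 passed above 0 and Efnb2, an ephrin ligand gene, below 0 (-0.47 ± 0.09, adjusted p = 0.0423), with a median of -0.10. The shares of all genes were 0.0601% above 0 and 0.308% below 0. Efnb2 is the gene whose probe sets disagreed: of 3 others past the filter 1 had the same sign.

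Genes of TGF-beta signalling itself did not pass the test of the difference at either sign. Of 21 measured ligands, receptors and Smads 0 passed, with a median of 0.04, and of 25 TGF-beta response genes 0 passed, with a median of 0.09 and median genotype effects of -0.19 at the distal and -0.18 at the proximal end. Among the first list Inhba, an activin subunit gene, had 0.89 ± 0.29 (adjusted p = 0.383) and the receptor gene Acvr1b -0.35 ± 0.11 (adjusted p = 0.391). At single ends, Tgfbr1 was higher in the mutant distally (0.28, adjusted p = 0.0162), Inhba was lower proximally (-1.27, adjusted p = 0.00358), and Acvr1b and the receptor gene Acvr2b were higher proximally (0.40 and 0.71, adjusted p = 0.0132 and 0.0116). Among the response genes Acta2, Ccn1, Tagln and Ldlrad4 had the smallest p, with 1.20, 0.51, 0.58 and 0.33, and the smallest of these adjusted p was 0.574. Part of the genes of the matrix list and of the Lin28 list differed by genotype at each end. Of 34 matrix genes 7 were lower in the mutant at the distal end and 10 at the proximal end, beside 3.04% and 1.8% of all genes. None was higher at either end, the medians were -0.50 and -0.65, and 0 passed the test of the difference. Of 11 genes of a list linked to Lin28 and let-7, 6 were higher in the mutant at the distal and 7 at the proximal end. The shares of all genes were 1.23% and 1.63%. None of the 11 passed the test of the difference. Sall4, a zinc finger gene of early development, had the smallest p there (-0.76 ± 0.22, adjusted p = 0.243), with 1.18 at the distal and 1.95 at the proximal end. A p that misses the threshold does not show equal effects at the ends.

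Skeletal muscle genes had the largest median of any list, at 1.35 over 37 of 41 members measured. All 37 lay above 0, beside 5301 of 13302 for all genes. Yet 0 passed the test of the difference, and 22 had an unadjusted p under 0.05, beside 918 of all genes. At the distal end 12 were higher in the mutant and 0 lower, beside 1.23% and 3.04% of all genes, with a median effect of 1.26. At the proximal end 0 passed, beside 3.43% of all genes, with a median of -0.08. The summed level was 14.43 to 15.64 in mutant distal and 13.28 to 14.76 in control distal mandible, which overlapped, and 15.45 to 16.30 in mutant proximal and 15.46 to 16.10 in control proximal mandible. Myl1, a fast myosin light chain gene, had 2.09 ± 0.53 (adjusted p = 0.159), with 1.89 at the distal end (adjusted p = 0.0108) and -0.20 at the proximal end (adjusted p = 0.868). The sarcomere gene Ttn (1.98 ± 0.55), the muscle Kelch protein gene Klhl41 (1.79 ± 0.53) and the muscle transcription factor gene Myog (1.69 ± 0.51) followed, with adjusted p of 0.231, 0.279 and 0.296. The median was 0.77 to 1.88 with all arrays of 1 number left out. How much muscle each dissected end held was not measured. The plots by list and by marker set these groups side by side.

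**Figure D4:**
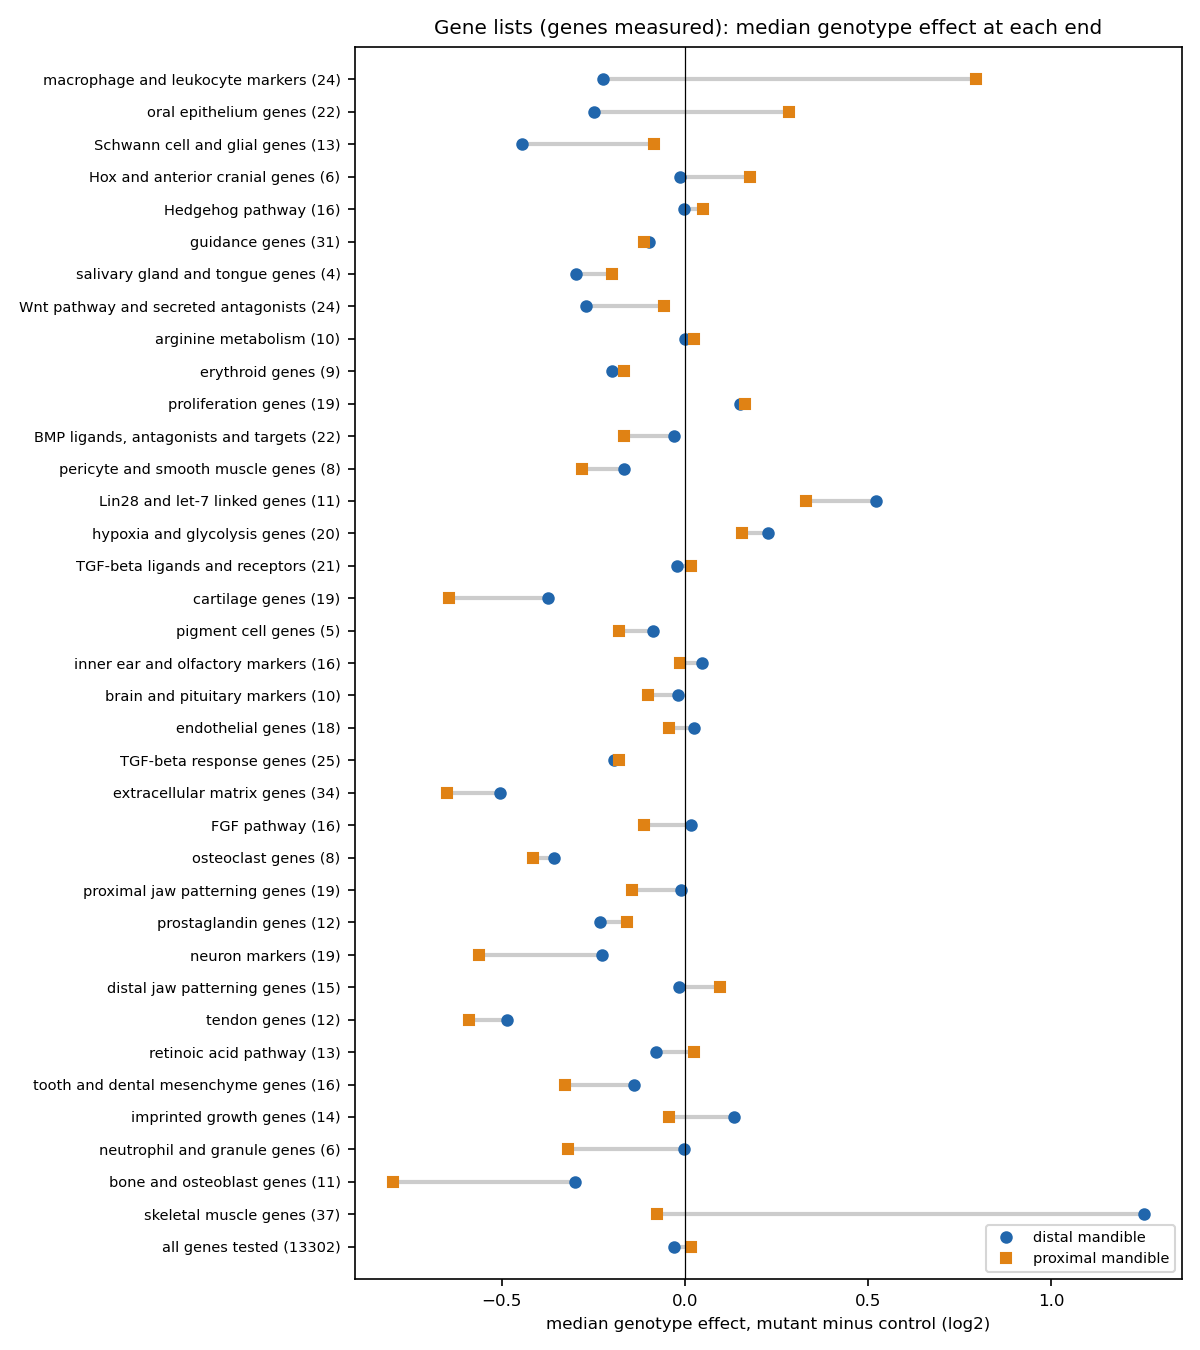
Median genotype effect (mutant minus control, log2) at the distal end (blue circles) and the proximal end (orange squares) for each gene list and for all 13302 genes, with the number of genes measured in brackets and lists ordered by the median difference of differences. Macrophage and leukocyte markers at the top sit at -0.22 and 0.79, and skeletal muscle genes near the bottom at 1.26 and -0.08.

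**Figure D5:**
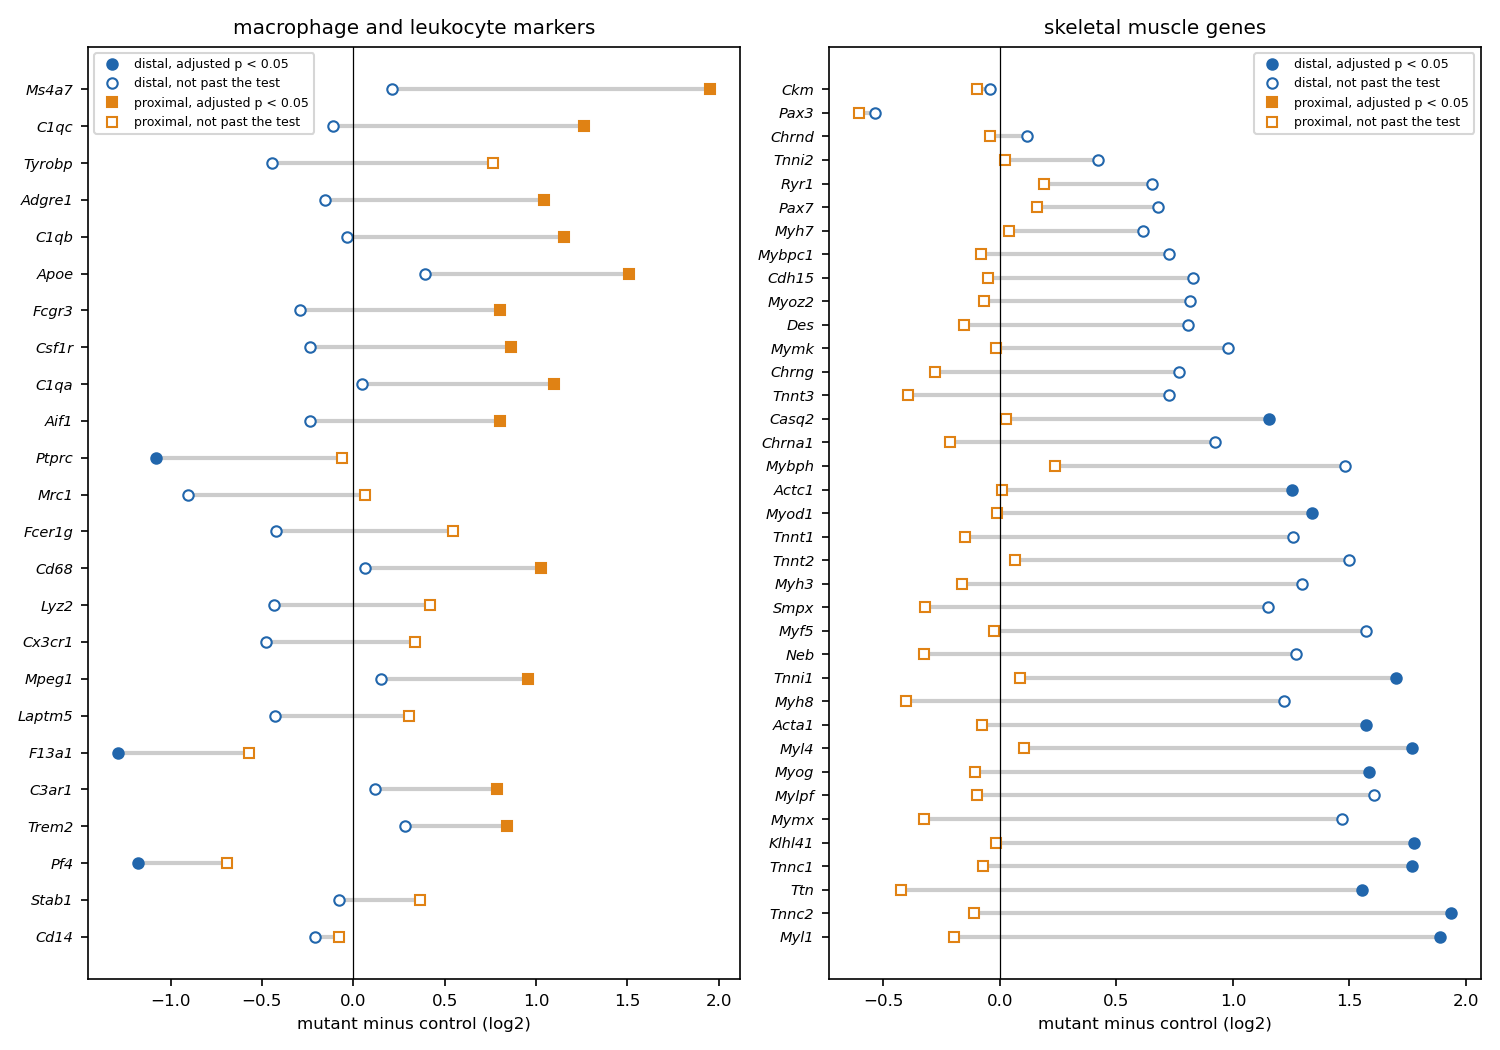
Genotype effect (mutant minus control, log2) at the distal end (blue circles) and proximal end (orange squares) for the 24 macrophage and leukocyte markers (left) and 37 skeletal muscle genes (right) measured; filled symbols passed the test at that end. For macrophage markers 13 proximal and 3 distal symbols are filled, for muscle genes 12 distal and 0 proximal.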

How the data were processed

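Total RNA was measured on 1 Affymetrix array per sample, with labelled cRNA made from 5 µg of RNA per the labels' protocols. The deposited table holds a log2 level for every probe set on every array, which the authors produced with RMA, a method that corrects background, quantile-normalizes the arrays and summarises each probe set by median polish, per the submitters' processing notes; the version and genome build are not given in the sources used here. After RMA all arrays share nearly 1 distribution, so a common shift of the majority of genes would not be seen, and differences at low signal are compressed. Precision is limited by having 4 arrays per group.

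The array's 45101 probe sets comprised 34945 with a single symbol in the annotation given for the platform, 932 with several, 9160 with none and 64 controls. By Entrez identifier 34741 matched a RefSeq gene table (GRCm38.p6), which changed 0 symbols and served for names and neighbours. Each gene was represented by its probe set of highest mean across the 32 arrays, and 13302 genes above the array percentile 40 on at least 4 of 16 arrays were tested. A model of the 4 group means was fitted to the 16 mandible arrays with limma 3.58.1 in R 4.3.3 (lmFit and eBayes, 12 residual degrees of freedom). P-values were adjusted by the Benjamini-Hochberg method over all genes tested, within each comparison, and every adjusted p here comes from limma. The procedure was tested on simulated data. Intervals are 95% and use the moderated spread. Summed list levels are log2 of summed linear values. Promoter windows come from RefSeq, matched by symbol for 30 of the 49 genes past the test.

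Array numbers were not taken to pair samples: deviations from group means correlated over 0.1 in 7 of 8 pairs of ends of 1 genotype and number (0.0085 to 0.683) and in 6 of 8 pairs of genotypes of 1 end and number (-0.096 to 0.404). Of the 8 pairs of ends, 6 correlated best with their own number, and in 0 of 8 sets did the ends differ in the Xist check. The ends of 1 number may thus share embryos, which the labels do not say and the main test does not use. The alternatives were other filters, probe set rules, normalization, variance models, blocks, all 32 arrays and left-out arrays or numbers. Described were Tgfbr1 and the jaw markers, and the 15 largest differences of differences in each direction among genes past the test, filled to 10 by unadjusted p. In the described lists the members past the test were named, with at most 4 of the members with the smallest p, and in some lists fewer or none. Other genes named with values are members of the 49, except Csf1r, Ptprc, Rspo3 and Acvr2b, named after their values were seen. The comparison, the gene lists and these rules were chosen with earlier results of these data known.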

Additional observations from a re-analysis of the deposited data

Results flagged for a closer look

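The genotype effects at the ends differed past the test in 49 genes, and the largest of them stood out for that reason. Below 0 these were Arg1 (-3.55), Emx2 (-3.35), E330013P04Rik (-1.96), Glis3 (-1.84), Efemp1 (-1.83), Pantr1 (-1.83), Nts (-1.75), Ms4a7 (-1.74), Elmod1 (-1.70), Pcdh10 (-1.61), Rspo1 (-1.60), Ms4a6d (-1.60), Dlx3 (-1.56), Ms4a6b (-1.55) and Tbx18 (-1.54). Above 0 they were Dync1i1 (0.59), Nrp2 (0.83), Cdo1 (0.87), AW551984 (1.05), Rspo2 (1.15), Prokr2 (1.31), Cnr1 (1.36) and Lrrn3 (1.42). Each value is a log2 difference of differences tested with limma.

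In 4 of 92 groups of 4 arrays screened over these genes, 1 array lay far from the other 3 by Dixon's ratio at its 95% critical value, a count that chance alone can give. Control proximal array 2 was high for Efemp1 (11.70, against 11.44 to 11.48 on the other 3). Mutant proximal array 3 was high for Ms4a7 (9.65, against 9.50 to 9.51). Mutant distal array 3 was high for Dync1i1 (9.12, against 9.03 to 9.05), and control distal array 2 was high for Cnr1 (9.26, against 9.06 to 9.09). Each gap was small beside the difference between the genotypes at the end where that gene passed, or, for Dync1i1, beside its difference of differences of 0.59.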

How the results depend on the processing

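Against 49 genes, the test of the difference gave 49 with no filter on low signal, 43 with the filter at percentile 60, 34 with the mean of a gene's probe sets, 36 with every probe set tested, 41 after repeated quantile normalization and 46 with a trend and robust prior. All 32 arrays in 1 fit gave 4 genes (Emx2, E330013P04Rik, Efemp1 and Lhfpl3), 258 at the distal end and 174 at the proximal end, where the main counts were 567 and 456. Of the 4, Lhfpl3 had passed the filter on low signal only through mutant proximal mandible, the group in which it was high. The median residual SD was 0.154 over the mandible arrays and 0.182 over all 32. With the number as a replicate block the counts were 75, 1444 and 969, and with number 1 as a batch covariate 96, 1524 and 1091. A random replicate block of genotype and number gave 121 and a fixed one 48, of which 29 were among the 49. Genes described above that did not pass with the fixed block included C1qa, C1qb, C1qc, Apoe, Adgre1, Rspo2, Elmod1 and Ryr2 (adjusted p = 0.0935, 0.0609, 0.056, 0.0854, 0.056, 0.0626, 0.143 and 0.0635). The fixed block gives no effect at a single end. Not every pair of equal numbers correlated above 0.1, so these are not taken as the paired result; between the ends of 1 genotype the exception was control number 3 (0.0085), whose distal array stood apart in RNA quality. Without number 1 and control distal array 3 together, a choice made after seeing the data, the proximal count was 996, and the median of Schwann cell genes was 0.025 instead of -0.40 (-0.06 without number 1 alone); the cause was not tested.

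Leaving out single arrays gave 18 to 47 genes for the difference, 271 to 787 at the distal end and 244 to 645 at the proximal end, and leaving out numbers gave 5 to 29, 131 to 599 and 86 to 497, with fewer arrays in each fit. For the difference the count fell by over 1.5 times without mutant distal arrays 1, 2, 3 or 4 (32, 27, 29 and 30), mutant proximal arrays 1 or 3 (26 and 18) or control proximal arrays 2 or 3 (31 and 26). For the distal count these were mutant distal arrays 2, 3 and 4 (327, 271 and 299) and control distal array 1 (358). For the proximal count they were mutant proximal arrays 2, 3 and 4 (275, 244 and 249) and control proximal arrays 1 and 3 (301 and 297). None of the 49 genes changed sign under any of these alternatives where it had a value. Genes that passed in all 16 fits without 1 array included Arg1, Emx2, Ms4a7, Rspo1, Cnr1, Prokr2, Lrrn3 and C1qc, while Dync1i1, Edil3 and Efnb2 passed in 1 of them. Of these, Arg1 would have missed the filter on low signal without mutant proximal mandible. Apoe, Ryr2 and Hs3st1 passed in 2 of the 16 fits, Nts, Syn3, Dach2 and Selenop in 3, and Rspo2 and Elmod1 in 4. Adgre1 and C1qb passed in 5, Ms4a6b in 6 and C1qa in 10. Array signal has no zero, and low values, as for Arg1 outside mutant proximal mandible, give no measure of how low the RNA was.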

Other observations

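Lists not described so far had few genes near the threshold. Schwann cell and glial genes had 13 of 15 members measured and 0 past the test. All 13 lay below 0, beside 8001 of 13302 for all genes. Their median was -0.40, which was -0.06 without number 1. Their summed level was 12.11 to 12.50 in mutant distal and 12.34 to 13.08 in control distal mandible, and 12.87 to 13.39 in mutant proximal and 12.99 to 13.55 in control proximal mandible, overlapping at both ends. Mbp, the myelin basic protein gene, had -0.81 ± 0.17 (adjusted p = 0.0597) and was higher in the mutant at the proximal end (0.55, adjusted p = 0.0213). The neurotrophin receptor gene Ngfr had -0.74 ± 0.34 (adjusted p = 0.711). Among 22 genes of BMP ligands, antagonists and targets 0 passed, and the receptor gene Bmpr1b came nearest at -1.21 ± 0.25 (adjusted p = 0.0597), with 0.19 at the distal end (adjusted p = 0.58) and 1.41 at the proximal end (adjusted p = 0.000689). The ligand genes Bmp7 and Bmp4 had -0.52 ± 0.15 (adjusted p = 0.253) and 0.62 ± 0.22 (adjusted p = 0.455), on opposite sides of 0. Among 16 Hedgehog genes 0 passed, with a median of -0.14, and Foxd1 and Shh had the smallest p at -1.12 ± 0.35 (adjusted p = 0.346) and -1.35 ± 0.45 (adjusted p = 0.408), both higher in the mutant at the proximal end (1.33 and 1.49).

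Bone and osteoblast genes had 11 members measured and 0 past the test, with a median of 0.48 and median genotype effects of -0.30 at the distal and -0.80 at the proximal end, where 0 passed at either. Tendon genes had 0 of 12 past the test of the difference. In the mutant 2 were lower at the distal end and 3 at the proximal end, beside 3.04% and 1.8% of all genes. Among 19 cartilage genes 0 passed, and the collagen gene Col9a1 had the smallest p at -0.74 ± 0.18 (adjusted p = 0.132). Of 16 inner ear and olfactory markers Dlx3 passed below 0, beside 0.308% of all genes. Eya1 and Eya4, cofactor genes of 1 family, had 1.20 ± 0.25 (adjusted p = 0.0597) and 0.75 ± 0.17 (adjusted p = 0.0822), both above 0. Endothelial, erythroid and proliferation genes had medians of 0.09, -0.03 and -0.02, with 0 past the test of the difference in each.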
